A study of Mus musculus with 5 samples.

Results

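The clustered protocadherin genes were examined as all CpG positions called between 36900000 and 37860000 on chromosome 18 (mm10) that had at least 10 calls in each of the 5 libraries on the allele described. This gave 202 of 170286 positions on the castaneus allele and 207 of 165153 positions on the domesticus allele. The 2 sets held 300 distinct positions, 109 of them measured on both alleles. A position was assigned to the variable exon or the 1 kb upstream of a gene named Pcdha, Pcdhb or Pcdhg in GENCODE M21, or to the space between. Of the 58 annotated genes, 28 had a member in their exon or upstream region on either allele. These were 4 of 12 Pcdha genes, both C-type genes of the alpha cluster, 9 of 22 Pcdhb genes, 9 of 12 Pcdhga genes, 3 of 7 Pcdhgb genes and 1 of 3 C-type genes of the gamma cluster.

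Clustered protocadherins are single-pass adhesion proteins of the cadherin family that give neurons an individual surface identity. Each alpha and gamma variable exon has its own promoter and is spliced to constant exons shared by its cluster, whereas the beta genes are single exons. Promoter choice is largely random for each allele in each neuron and involves CTCF, cohesin and DNA methylation of unused promoters, while the C-type isoforms are used more constitutively. Setdb1 is a histone methyltransferase that places H3K9 methylation on silenced chromatin.

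The cells were E13.5 female mouse embryonic fibroblasts (MEFs), by the labels of 129/C57 dams and CAST sires and by the study's methods 129/CAST, so the domesticus allele was maternal and the castaneus allele paternal. All 5 libraries carried Xist-deltaA on 1 X chromosome and were selected with puromycin after retroviral transduction. The Female control group (n = 3) was Setdb1+/+ with the Nonsilencing hairpin, and the Setdb1 depleted group (n = 2) was Setdb1+/gt, with a gene trap in 1 copy of Setdb1, with the shSetdb1 hairpin. Genotype and hairpin therefore differed together, and their parts cannot be told apart. The labels do not say whether the libraries came from separate embryos or cultures, so p-values measure only the spread between these libraries.

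The assay was enhanced reduced representation bisulphite sequencing (eRRBS), which reads fragments cut by the enzyme MspI and therefore samples only part of the locus. Total CpG calls ranged from 9440874 to 10558931 over the libraries and alleles, and the members had medians of 46 to 58.5 calls per position and library. The window contains 11377 reference CpGs, of which 1.52% (castaneus) and 1.55% (domesticus) were measured when both strands were merged. In the upstream 1 kb, where the promoters lie, 5 of 650 reference CpGs were measured on each allele. All members lay at a reference CpG. The alleles were named from Zrsr1 and Impact, imprinted genes methylated on the maternal copy. The allele with more mC over these genes was taken as domesticus, so they cannot check that naming. Zrsr1 had 93.4 to 96.6% mC on the domesticus and 1.05 to 5.10% on the castaneus allele. The separation was less complete over Impact, at 57.3 to 60.3% on the domesticus and 10.8 to 18% on the castaneus allele.

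Because the variable exons are alike in sequence, each member was compared with the reference, together with the sequence on either side of it. Of 221 exon and upstream positions, 78 had a further copy, aligned over at least 91 bp at 90% identity or more, and for all 78 every copy lay within the window itself. Of the 79 positions in the space between, 29 had such a copy and 24 lay in soft-masked repeats. Whether reads at these positions came from another copy was not tested.

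The protocadherin exons held intermediate methylation in a genome whose gene starts were mostly unmethylated. Over the 166 exon and upstream positions of the castaneus allele, mean mC was 43.6, 43.3 and 39.4% in controls and 41.5 and 39.1% in depleted libraries. The other autosomal gene elements, defined the same way as the coding exon with the start codon and 1 kb before it, had 4.93 to 5.10% over 48247 positions. The difference was 36.4 percentage points on average and positive in 5 of 5 libraries (p = 0.063 by a two-sided exact permutation test that flips signs, which cannot go lower with 5 libraries). On the domesticus allele the 146 positions had 42.2, 43.4 and 40.6% in controls and 39.2 and 42.0% in depleted libraries, again 36.3 points above the other elements in 5 of 5 libraries (exact permutation p = 0.063).

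Most members were neither fully methylated nor unmethylated. In the variable exons 74.4% of castaneus and 77.9% of domesticus positions had a mean between 20 and 80% mC. The share was 2.91 and 2.93% in other gene elements, upstream 1 kb included, and 15.8 and 16.4% at all other autosomal positions. Other genes had 17629 castaneus positions in the 500 bp before the exon and 22577 in its first 500 bp, beside 10 and 75 for protocadherins. The compared positions thus differ in region and in distance from the exon start, also for the means above. Taken in each library, the share of exon and upstream positions in that range was higher than in the other elements by 63.9 points ± 7.88 (SD, n = 5) on the castaneus and 67.2 points ± 5.03 (SD, n = 5) on the domesticus allele (exact sign-flip permutation p = 0.063 for each). With at least 3 positions per element, 12 of 18 castaneus and 14 of 16 domesticus protocadherin elements lay between 20 and 80%, against 3.74 and 3.69% of the other elements.

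**Figure D1:**
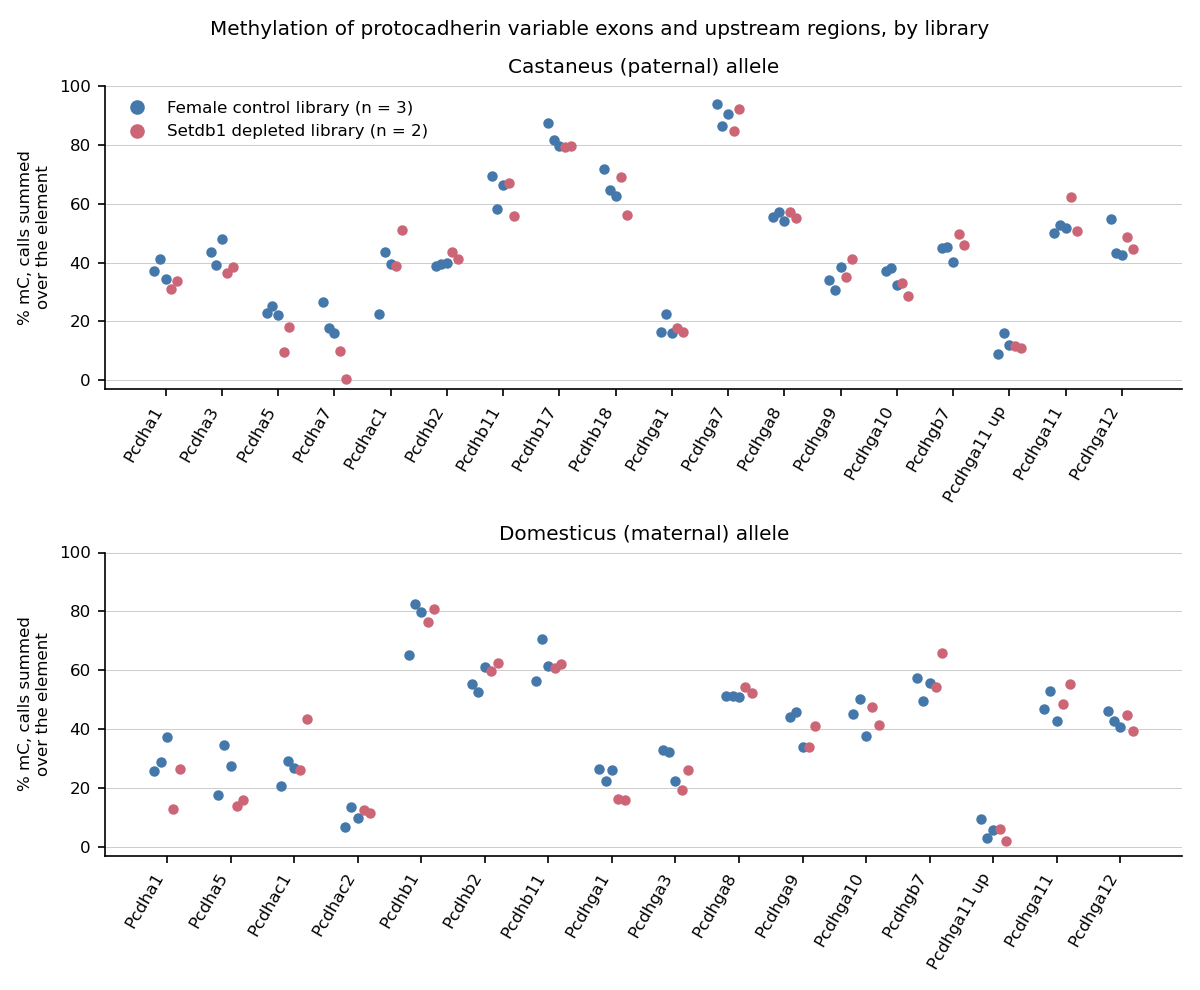
Percent mC of each protocadherin variable exon, or upstream region ("up"), with at least 3 measured positions, in chromosomal order from left to right, with 1 point per library (blue, Female control, n = 3, red, Setdb1 depleted, n = 2). Pcdha exons sit low, Pcdhb exons high and Pcdhga exons in between, with exceptions such as Pcdhga7 above 80% and Pcdhga1 below 30%.

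The clusters differed from each other in level. On the castaneus allele, Pcdha elements (36 positions, 4 genes) had 32.8, 34.8 and 28.3% mC in controls and 25.9 and 25.7% in depleted libraries. Pcdhb elements (23 positions, 7 genes) had 65.3, 60.5 and 60.1% in controls and 59.3 and 55.0% in depleted libraries. Pcdhga elements (90 positions, 9 genes) lay between them at 37.6 to 42.9%.

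The order was the same on the domesticus allele, where Pcdha elements (16 positions, 3 genes) had 13.2 to 32.9% mC, Pcdhga elements (74 positions, 7 genes) 35.0 to 41.3% and Pcdhb elements (26 positions, 9 genes) 63.5 to 68.9%. Beta exceeded alpha by 30.6 points ± 3.10 (SD, n = 5) on the castaneus and 42.4 points ± 7.30 (SD, n = 5) on the domesticus allele, and gamma A exceeded alpha by 10.9 and 14.9 points. Each of these differences was positive in 5 of 5 libraries (exact sign-flip permutation p = 0.063). Gamma A and alpha came close in 1 library, control replicate 3 on the domesticus allele, where they differed by 2.09 points. The clusters were measured at different distances from the exon start. Of the castaneus exon positions, 20 of 36 alpha, 51 of 82 gamma A and 1 of 21 beta positions lay in the first 500 bp, and of the domesticus ones 7 of 16, 34 of 70 and 1 of 24. Cluster and distance into the exon therefore cannot be told apart in these differences.

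Single genes spanned nearly the whole range. Among castaneus elements of at least 3 positions the highest control means were those of the exons of Pcdhga7 (90.2% ± 3.61, SD, n = 3), Pcdhb17 (82.9% ± 4.16), Pcdhb18 (66.2% ± 4.77) and Pcdhb11 (64.6% ± 5.78). Among domesticus elements of that size they were those of Pcdhb1 (75.9% ± 9.27, SD, n = 3), Pcdhb11 (62.9% ± 7.29), Pcdhb2 (56.3% ± 4.41) and Pcdhgb7 (54.2% ± 4.04). Exons with only 1 or 2 positions reached 92.4% (castaneus Pcdhga3) and 89.9% (domesticus Pcdhb15).

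The lowest elements included the upstream region of Pcdhga11, the exon of Pcdhga1, which is the first gene of the gamma cluster, and Pcdhac2. The 8 castaneus positions upstream of Pcdhga11 had 12.2% ± 3.56 (SD, n = 3) in controls, while its exon, directly downstream, had 51.6% ± 1.47 over 6 positions. The corresponding domesticus values were 5.95% ± 3.22 (SD, n = 3) over 4 upstream positions and 47.5% ± 5.08 over 8 exon positions. In each of the 5 libraries and on both alleles the upstream region was thus lower than the exon.

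Of the C-type genes, which are expressed more constitutively than their neighbours, 3 of 5 were measured on the domesticus allele. The exon of Pcdhac2 (7 positions) had 6.62, 13.4 and 9.73% mC in controls and 12.5 and 11.4% in depleted libraries. The exon of Pcdhgc3 had 0% mC in all 5 libraries at both of its positions, 184 and 218 bp into the exon, in 50 to 86 calls per library. A count of 0 in 50 calls allows a share of up to 6%, for counting error only. Pcdhac1 stood higher, with 20.8, 29.0 and 26.8% in controls and 26.1 and 43.4% in depleted libraries over 5 positions about 2 kb into the exon. Its control mean of 25.5% lay beside those of Pcdha5 (26.6%) and Pcdha1 (30.6%). Pcdhac2 and Pcdhgc3 had no castaneus member, and Pcdhgc4 and Pcdhgc5 had none on either allele.

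The bins further into the exon had more mC than the first 500 bp, for protocadherins and for other genes. On the castaneus allele the 75 positions in the first 500 bp of the exon had 34.2, 34.0 and 29.9% mC in controls and 30.2 and 27.8% in depleted libraries. The 31 positions 1 to 1.5 kb into the exon had 61.3, 52.8 and 52.7% in controls and 57.6 and 55.1% in depleted libraries. The gap was 24.7 points ± 3.82 (SD, n = 5) and positive in 5 of 5 libraries (exact sign-flip permutation p = 0.063). Of these 31 positions, 19 belonged to Pcdhga12 alone. The bin between them, 0.5 to 1 kb, held 10 positions at a mean of 61.1%. All other autosomal genes had 4.4% in the first 500 bp and 19.6% at 1 to 1.5 kb. At 1.5 to 2.5 kb the other genes had 29.2%, higher again, while the 38 protocadherin positions had 48.8%, lower than in the 2 bins before.

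The domesticus gap was 13.8 points ± 3.27 (SD, n = 5), between 32% over 44 positions and 45.8% over 39 positions (exact permutation p = 0.063), 17 of them in Pcdhga12. The 17 positions between, at 0.5 to 1 kb, had 47.2%, and the other genes went from 4.5 to 21.6%. At 1.5 to 2.5 kb, 36 domesticus protocadherin positions had 45.0% and the other genes 26.6%. In the 500 bp before the exon, where only Pcdhb13 and Pcdhga11 were measured, libraries had 12.9 to 22.8% over 10 castaneus and 15.9 to 24.5% over 6 domesticus positions. The bins hold different genes. Only 4 castaneus and 2 domesticus exons had positions both in the first 500 bp and beyond 1000 bp, and the far stretch was higher in 3 and 1 of them, so position and gene cannot be told apart. Already in the first 500 bp the protocadherin exons were 26.8 (castaneus) and 27.5 (domesticus) points above the other genes, in 5 of 5 libraries each (exact permutation p = 0.063).

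**Figure D2:**
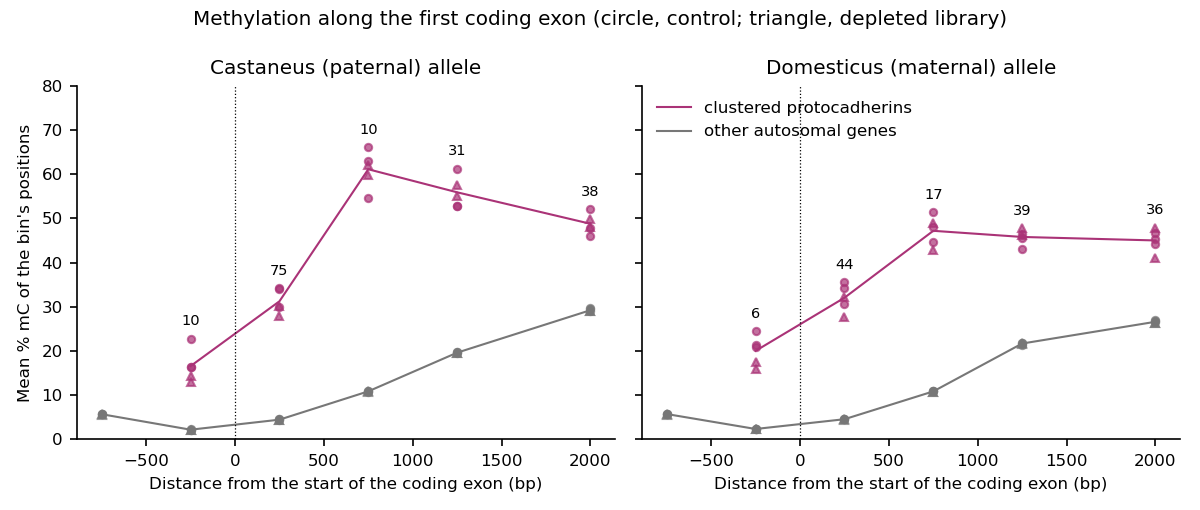
Mean percent mC against distance from the start of the coding exon, in bins of 500 bp (the last, 1.5 to 2.5 kb, is wider), for the clustered protocadherins and all other autosomal genes, with 1 symbol per library (circles, 3 controls, triangles, 2 depleted) and a line through the mean. The numbers give the protocadherin positions in each bin. The protocadherin curve lies above the other genes in every bin shown with both. The protocadherin bins rest on 2 to 11 genes, and 19 of the 31 castaneus positions at 1 to 1.5 kb are in Pcdhga12.

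The study asked whether Setdb1 depletion alters CpG methylation, examined here at the protocadherin locus. Over all 202 castaneus members, mean mC was 41.5, 41.3 and 38.0% in controls and 39.8 and 37.7% in depleted libraries, so that the groups overlapped and differed by -1.57 points (p = 0.4 by a two-sided exact permutation test, whose smallest possible p is 0.1). Over the 207 domesticus members it was 40.2, 40.8 and 38.8% in controls and 37.7 and 39.5% in depleted libraries, so that the groups again overlapped, with a change of -1.34 points (exact permutation p = 0.3). Leaving out 1 library gave -2.71 (control replicate 3) to -0.527 points (depleted replicate 2) on the castaneus and -2.26 (depleted replicate 2) to -0.425 points (depleted replicate 1) on the domesticus allele. With calls pooled over positions the differences were -2.84 and -2.51 points, and without positions that have a further copy -0.558 and -1.19 points. The control SD was 1.97 points (n = 3) on the castaneus and 0.994 points (n = 3) on the domesticus allele.

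In the variable exons alone the difference was -1.62 points on the castaneus allele (exact permutation p = 0.5) and -1.3 points on the domesticus allele (p = 0.5 in the same permutation test). Leaving out 1 library gave -3.02 (control replicate 3) to -0.381 points (depleted replicate 2) on the castaneus allele and -2.74 (depleted replicate 2) to 0.148 points (depleted replicate 1) on the domesticus allele. The castaneus value was -0.524 points without positions that have a further copy, and the domesticus value -2.51 points with calls pooled over positions. Relative to the other autosomal gene elements, which differed by -0.0997 and -0.0832 points on these alleles, the exon and upstream positions differed by -1.72 and -1.39 points (exact permutation p = 0.4 for each). With 1 library left out these ranged from -3.07 (control replicate 3) to -0.496 points (depleted replicate 2) and from -2.77 (depleted replicate 2) to -0.0116 points (depleted replicate 1).

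The mean over upstream regions was lower in both depleted libraries than in every control, but it covers only 10 and 6 positions of Pcdhb13 and Pcdhga11 and the 2 regions differed. Upstream of Pcdhga11 the groups overlapped on both alleles, with differences of -0.869 (castaneus) and -1.82 points (domesticus). These turned to 0.99 points without control replicate 2 (castaneus) and 0.223 points without depleted replicate 2 (domesticus). At the 2 positions upstream of Pcdhb13 the groups did not overlap, with -21.9 and -13.8 points. The mean over all 10 castaneus upstream positions was 16.4, 22.8 and 16.4% in controls and 14.2 and 12.9% in depleted libraries. This made -4.95 points (exact permutation p = 0.3), and -2.82 points without control replicate 2. Domesticus upstream regions had 24.5, 20.8 and 21.3% in controls and 15.9 and 17.5% in depleted libraries, or -5.53 points (exact permutation p = 0.1, the smallest possible).

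By cluster, the Pcdha elements had the lowest depleted values relative to controls. The castaneus libraries given above did not overlap between groups, with a mean of 31.95% ± 3.34 (SD, n = 3) against 25.8% ± 0.118 (SD, n = 2), or -6.18 points (exact permutation p = 0.2). Over the 9 of 36 positions without a further copy it was -11.3 points. Domesticus Pcdha elements had 21.7, 30.3 and 32.9% in controls and 13.2 and 20.5% in depleted libraries. The difference was -11.4 points and the groups again did not overlap (exact permutation p = 0.2), although depleted replicate 2 lay only 1.15 points below control replicate 1. Leaving out depleted replicate 1 gave -7.77 points, and leaving out depleted replicate 2 gave -15.1 points. Only 3 of the 16 positions had no further copy, and over these it was -8.17 points.

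Castaneus Pcdhb elements were also lower in both depleted libraries, by -4.84 points (exact permutation p = 0.1), whereas on the domesticus allele the Pcdhb difference was 0.213 points with overlapping groups (exact permutation p = 0.9). The castaneus value was -3.0 points with calls pooled over positions, -7.91 points without positions that have a further copy, -3.17 points without control replicate 1 and -2.71 points without depleted replicate 2. The largest castaneus falls were at 1 position of Pcdhb3 (-26.1 points) and 2 positions upstream of Pcdhb13 (-21.9 points). The exons of at least 3 positions differed by 3.06 (Pcdhb2), -3.17 (Pcdhb11), -3.59 (Pcdhb17) and -3.52 points (Pcdhb18), and 1 position of Pcdhb16 by 6.45 points. Castaneus Pcdhgb elements, all of them Pcdhgb7, had higher values in both depleted libraries, by 3.84 points (exact permutation p = 0.2), or 2.2 points with depleted replicate 1 left out, while the domesticus Pcdhgb elements (16 positions, 3 genes) differed by -1.44 points with overlapping groups (exact permutation p = 0.6). Pcdhga elements differed by -0.715 and -1.02 points on the castaneus and domesticus alleles (exact permutation p = 0.8 and 0.9).

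The alpha exons were then taken 1 by 1. The exon of Pcdha5 (36960440 to 36962785) had 23.0, 25.1 and 22.0% mC in castaneus controls and 9.47 and 18.2% in depleted libraries (9 positions, 315 to 613 calls). Its domesticus values were 17.7, 34.6 and 27.5% in controls and 13.9 and 16.0% in depleted libraries (6 positions, 179 to 456 calls). On both alleles every depleted library lay below every control, by group means of -9.53 and -11.7 points. The castaneus difference was -5.14 points without depleted replicate 1, and the domesticus one -7.64 points without control replicate 2.

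The exon of Pcdha7 (36973802 to 36976278) was measured on the castaneus allele only, at 3 positions with 162 to 269 calls. It had 26.5, 17.8 and 16.2% in controls and 9.83 and 0.427% in depleted libraries, a difference of -15.0 points. The groups did not overlap, and the depleted libraries differed from each other by 9.40 points.

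The exon of Pcdha1 (36930184 to 36932672) had 37.2, 41.4 and 34.4% in castaneus controls and 31.0 and 33.6% in depleted libraries over 20 positions. Over 8 domesticus positions near the end of the exon, it had 25.75, 28.7 and 37.5% in controls and 12.8 and 26.6% in depleted libraries, where depleted replicate 2 lay within the control range. The castaneus groups did not overlap, while the domesticus groups did.

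The exon of Pcdha3 (36946105 to 36948576) had 43.55, 39.3 and 47.9% in castaneus controls and 36.4 and 38.4% in depleted libraries, a difference of -6.17 points over 4 positions. Leaving out 1 library gave -8.31 (control replicate 2) to -4.03 points (control replicate 3). The domesticus exon had only 2 positions, too few for the test, with 15.1, 20.8 and 32.5% in controls and 9.84 and 8.97% in depleted libraries. In all, the depleted mean was lower at each of the 4 measured Pcdha exons on each allele on which it was measured. A further copy was found for 18 of 20 castaneus positions of Pcdha1, 6 of 9 of Pcdha5 and 3 of 3 of Pcdha7, and for 7 of 8 and 6 of 6 domesticus positions of Pcdha1 and Pcdha5, but for none (0) of Pcdha3. The part of such copies in these differences was not tested.

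**Figure D3:**
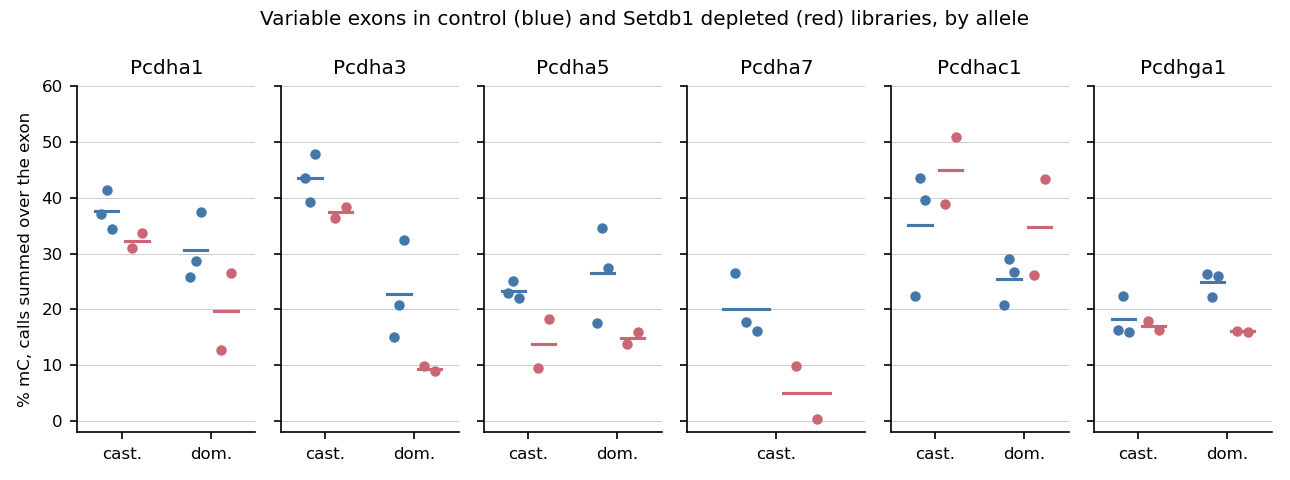
Percent mC of 6 variable exons, with calls summed over the exon, on the castaneus (cast.) and domesticus (dom.) alleles, with 1 point per library (blue, Female control, n = 3, red, Setdb1 depleted, n = 2) and a bar at each group mean. Red points lie below all blue points for Pcdha3, Pcdha5 and Pcdha7 on each allele shown, while 1 red point of Pcdhac1 on each allele lies above all controls.

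Outside the alpha exons the picture was mixed. The exon of Pcdhga1 (37661793 to 37665039) had 26.3, 22.3 and 26.0% on the domesticus allele of controls and 16.1 and 16.0% of depleted libraries, a difference of -8.76 points without overlap. On the castaneus allele the same exon had 16.3, 22.5 and 15.9% in controls and 17.9 and 16.3% in depleted libraries, with overlapping groups. The domesticus exon of Pcdhga8 was slightly higher in depleted libraries, at 54.4 and 52.2% against 51.3, 51.2 and 50.8% in controls.

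Pcdhac1 (37090013 to 37092571), a C-type gene next to the alpha exons, had higher depleted means on both alleles, but with overlapping groups. It had 22.4, 43.6 and 39.6% in castaneus controls and 38.9 and 50.9% in depleted libraries. The difference was 9.70 points on the castaneus and 9.23 points on the domesticus allele. Without depleted replicate 2 it was 3.67 and 0.600 points, without depleted replicate 1 it was 15.7 and 17.9 points, and without control replicate 1 the castaneus value was 3.29 points. Pcdhac2 differed by 2.06 points on the domesticus allele, less than the control SD of 3.37 points (n = 3). It was 0.414 points without control replicate 1. Without control replicate 2 it was 3.78 points (unadjusted p = 0.0352 by the quasi-binomial model described below).

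No element passed the test of the depletion. By the quasi-binomial model with limma moderation, which compares the calls of each element while allowing for the spread between libraries, 0 of 18 castaneus and 0 of 16 domesticus protocadherin elements had an adjusted p under 0.05, against 0.0204% of all 4912 castaneus and 0% of all 4572 domesticus elements tested. At an unadjusted p under 0.05 there were 3 on each allele, against 2.38 and 2.36% of all elements, and all 3 were lower in depleted libraries, against 1.49 and 1.47% of all elements. Among elements at 20 to 80% mC it was 1 of 12 castaneus and 3 of 14 domesticus protocadherin elements, against 11.5 and 11.9% of the other elements in that range. The range was set by the mean over all 5 libraries, so a fall after depletion can take an element out of it. The castaneus exons of Pcdha5 and Pcdha7 had control means of 23.4 and 20.2% but lay under the range by that mean. The 3 castaneus elements with an unadjusted p under 0.05 were Pcdha7 (p = 0.00261), Pcdha5 (p = 0.00932) and Pcdha1 (p = 0.0318) by the quasi-binomial model on the castaneus allele, each with an adjusted p of 1. Each of the 3 lost this with 1 library left out. Without depleted replicate 1, Pcdha5 had p = 0.193 and Pcdha1 p = 0.264 by the same quasi-binomial model, and 1 castaneus element remained under 0.05, against 1.91% of all elements. Without depleted replicate 2, Pcdha7 had p = 0.0771, and without control replicate 2, Pcdha1 had p = 0.155 (quasi-binomial model).

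For the domesticus allele the same model gave Pcdhga1 (p = 0.00484 by the quasi-binomial model), Pcdha5 (0.0221) and Pcdha1 (0.0388), again each with an adjusted p of 1. Pcdhga1 stayed under 0.05 with any 1 library left out (p = 0.00414 to 0.0339 by the quasi-binomial model). Pcdha5 did so only without control replicate 1, with 0.0691 to 0.0945 otherwise, and Pcdha1 had p = 0.474 without depleted replicate 1 and 0.133 without control replicate 3 (quasi-binomial model). Without depleted replicate 1 there were 2 domesticus elements, Pcdhga1 and Pcdhac1, against 1.88% of all elements. limma on log2 odds gave 0 calls on both alleles, against 0% of all elements, with 1 castaneus and 0 domesticus elements unadjusted, against 5.39 and 4.94%. Fisher's exact test, run on the summed calls of each group without regard to the spread between libraries, gave 4 castaneus and 5 domesticus elements, against 5.09 and 4.7% of all elements. Of these, Pcdhac1 was higher on each allele and the others were lower. Without positions that have a further copy, 1 of 13 castaneus and 1 of 12 domesticus elements had an unadjusted p under 0.05, against 2.34% of all elements on each allele. A missed threshold with 3 and 2 libraries does not show that an element was unchanged. The dispersion was moderated anew each time a library was left out. Without control replicate 1, nearly 1 common dispersion served all domesticus elements, so the p of Pcdha5 there did not rest on its own spread. These p-values thus differ in their moderation as well as in the library left out.

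The depleted mean was lower at 12 of 18 castaneus elements, against 48.8% of all elements, and at 9 of 16 domesticus elements, against 48.1%. The groups did not overlap at 7 castaneus elements, against 12.7% of all elements, 5 of them lower, against 6.43%. They did not overlap at 3 domesticus elements, against 11.9% of all elements, 2 of them lower, against 5.73%. Most of the other elements lie near 0% mC. Among elements at 20 to 80% mC, 4 of 12 castaneus and 3 of 14 domesticus protocadherin elements did not overlap, against 23 and 25.6% of the other elements in that range. The median difference of those protocadherin elements was 0.128 points on the castaneus and -0.598 points on the domesticus allele, beside -1.88 and 0.191 points for the other elements in that range. The castaneus set in that range leaves out Pcdha7 (-15.0 points) and Pcdha5 (-9.53 points), both without overlap, as their means over all 5 libraries lay under 20%. Over all tested protocadherin elements the median difference was -1.45 points on the castaneus and -0.598 points on the domesticus allele.

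At single positions the same model gave 0 of 202 castaneus and 0 of 207 domesticus members past an adjusted p of 0.05, against 0.00179 and 0.016% of all autosomal positions. Unadjusted, there were 12 castaneus members, 9 of them lower in depleted libraries, and 16 domesticus members, 10 of them lower, against 2.32 and 2.27% of all positions called and 1.16 and 1.11% called and lower. Without depleted replicate 2 there were 4 castaneus and 9 domesticus members, against 1.42% of all positions on each allele, and without control replicate 1 there were 11 and 10, against 2.2% on each. Among those at 20 to 80% mC it was 9 of 131 castaneus and 14 of 139 domesticus members, against 6.18 and 5.85% of the other autosomal positions in that range. For positions, too, the range was set by the mean over all 5 libraries. limma gave 0 on both alleles, against 0% of all positions, with 16 and 12 unadjusted, against 5.18 and 5.23%. By Fisher's exact test on summed calls there were 13 and 17, against 2.36 and 2.46% of all positions.

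The groups did not overlap at 37 castaneus members, against 9.6% of all positions, 22 of them lower, against 4.67%. They did not overlap at 32 domesticus members, against 9.89%, 22 of them lower, against 4.83%. Among members at 20 to 80% mC it was 27 of 131 and 25 of 139, a share of 20.6 and 18%, beside 21.5 and 21.3% of the other autosomal positions in that range.

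The smallest unadjusted p on either allele belonged to the same position, at 36960766, 326 bp into the exon of Pcdha5. Its castaneus mC was 34.7, 40.5 and 41.7% in controls and 13.7 and 9.21% in depleted libraries (quasi-binomial model, p = 0.00092, adjusted p = 1). Its domesticus mC was 32%, 70.0% and 44.6% in controls and 11.9 and 13.2% in depleted libraries (quasi-binomial model, p = 0.00117, adjusted p = 1). Both depleted libraries lay far below all controls on each allele. The alleles come from the same libraries and are not independent, and the sequence around this position has 12 further copies at 90% identity, all within the window.

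The second position by p on the castaneus allele lay 91 bp upstream of the exon of Pcdhb13, at 37442409. It had 51.2, 46.0 and 47.4% in controls and 14.0 and 15.8% in depleted libraries (quasi-binomial model, p = 0.0019, adjusted p = 1) and has no further copy. Its domesticus values were 62.8, 52.2 and 56.7% in controls and 25.0 and 36.4% in depleted libraries (quasi-binomial model, p = 0.0269, adjusted p = 1). With the other measured position of that region, the castaneus mean over the 2 positions was 44.3% ± 10.6 (SD, n = 3) in controls and 22.5% in depleted libraries, and the domesticus mean was 55.1% ± 2.64 (SD, n = 3) and 41.3%. In both cases the groups did not overlap, but 2 positions are too few for the element test. These 2 positions are adjacent bases, the 2 strands of 1 CpG.

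The second on the domesticus allele moved the other way. It lay at 37092024, 2011 bp into the exon of Pcdhac1, with 12.5%, 40.0% and 36% in controls and 52.5 and 74.4% in depleted libraries (quasi-binomial model, p = 0.00372, adjusted p = 1), and it has no further copy. Intermediate positions vary more between libraries than sampling gives. The dispersion averages 1 where calls vary as in sampling. Its median was 2.50 among castaneus and 2.51 among domesticus members at 20 to 80% mC, beside 2.29 and 2.32 at the other autosomal positions in that range.

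Reads with at least 4 CpG calls show how intermediate methylation was made up on single molecules. In protocadherin exons and upstream regions, also those without a member, such reads numbered 1087 to 1529 per library on the castaneus and 1012 to 1247 on the domesticus allele. On the castaneus allele mixed reads, with both methylated and unmethylated calls, made up 69.7, 71.8 and 70.5% in controls and 65.6 and 71.9% in depleted libraries. Fully methylated reads made up 3.86, 5.71 and 4.51% in controls and 4.76 and 2.02% in depleted libraries. The remaining 22.5 to 29.7% were wholly unmethylated, so mixed reads were the largest class in every castaneus library.

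Among elements at 20 to 80% mC, protocadherin reads were more often mixed than reads of other elements in that range. Mixed reads made up 77.7% ± 2.99 (SD, n = 5) of protocadherin and 61.0% ± 1.91 of other reads on the castaneus allele, and 68.9% ± 3.51 (SD, n = 5) and 60.4% ± 1.18 on the domesticus allele. Fully methylated reads made up 5.38 and 5.91% of protocadherin reads, against 15.4 and 16.5% of other reads. Both differences had the same sign in 5 of 5 libraries on each allele (exact sign-flip permutation p = 0.063 for each). Reads were pooled over elements, so an exon with many reads weighs more. In domesticus depleted replicate 2, mixed reads exceeded those of other elements by only 3.04 points. There Pcdhga12 gave 140 of the 927 protocadherin reads, 92.9% of them mixed. Without the reads of Pcdhga12, the share of mixed reads in that library would lie below that of other elements. The domesticus sign in 5 of 5 libraries thus rests on this exon, and the permutation test was not repeated without it. The castaneus reads held on average 5.41 to 5.59 calls in protocadherin and 5.29 to 5.36 in other elements, and the domesticus reads 4.93 to 5.37 and 5.30 to 5.49. Castaneus protocadherin reads thus held more calls in every library, and the part of this in the share of mixed reads was not tested. The mean level of the compared elements differed as well, with medians of 43.1 and 43.6% in protocadherin and 51.7 and 53.2% in other elements, and its part in the difference was not tested.

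**Figure D4:**
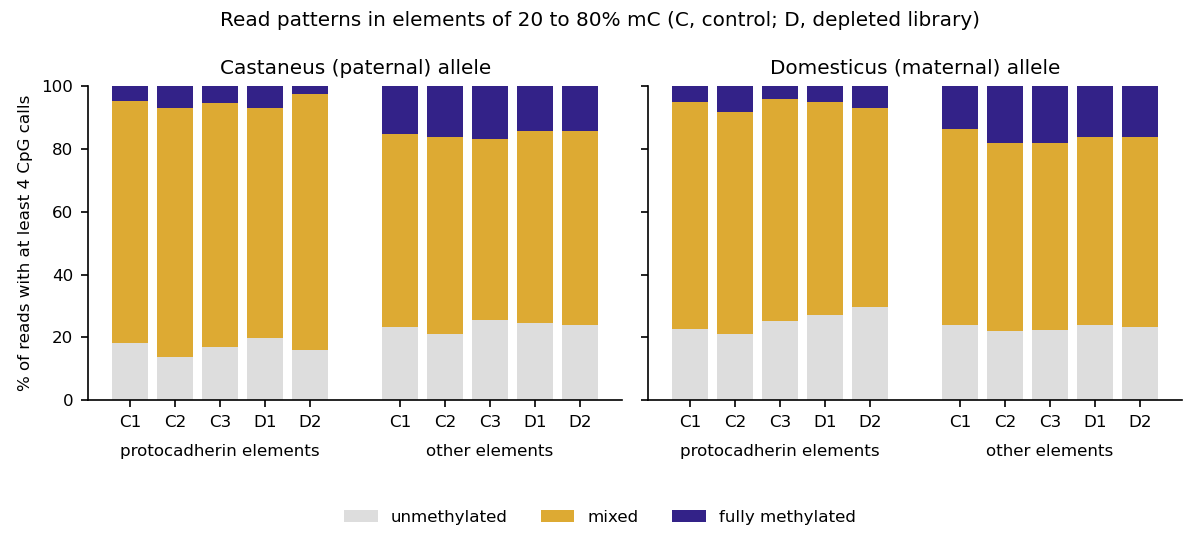
Share of reads with at least 4 CpG calls that were unmethylated, mixed or fully methylated, stacked to 100% for each library (C, Female control, D, Setdb1 depleted), in protocadherin and other autosomal gene elements of 20 to 80% mC. Mixed reads are the largest class everywhere, and the fully methylated class is thinner in protocadherin elements in all 5 libraries on both alleles.

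In the exon of Pcdhga12, with 74 to 215 such reads per library, 89.5 to 98.4% of castaneus and 83.1 to 92.9% of domesticus reads were mixed. In the exon of Pcdhga1, 46.1 to 54.3% of castaneus reads were unmethylated and 44.0 to 53.9% mixed, while domesticus reads were mostly mixed, at 79.0, 71.8 and 78.0% in controls and 65.2 and 53.3% in depleted libraries. After depletion, castaneus mixed reads over all protocadherin elements differed by -1.90 points and fully methylated reads by -1.30 points, with overlapping groups (exact permutation p = 0.7 and 0.5). With reads of at least 6 calls, castaneus mixed reads made up 82.4, 81.6 and 82.4% in controls and 73.0 and 76.1% in depleted libraries, without overlap and by -7.59 points (exact permutation p = 0.1, the smallest possible). With reads of at least 4 calls, mixed reads turned to 1.29 points when depleted replicate 1 was left out, and fully methylated reads to 0.0677 points when depleted replicate 2 was.

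Domesticus mixed reads made up 66%, 66.6% and 64.9% in controls and 62.35 and 59.7% in depleted libraries, without overlap and by -4.78 points (exact permutation p = 0.1). With reads of at least 6 calls it was 0.352 points. Fully methylated domesticus reads made up 4.41, 7.35 and 3.67% in controls and 4.05 and 6.46% in depleted libraries, with overlapping groups (exact permutation p = 1.0).

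The alleles were compared at the 109 positions measured on both. Mean mC was 36.3, 37.5 and 34.8% in controls and 37.0 and 34.6% in depleted libraries on the castaneus allele, and 36.8, 36.1 and 35.4% and 32.2 and 36.5% on the domesticus allele. The difference, domesticus minus castaneus, was -0.640 points ± 2.61 (SD, n = 5) and positive in 3 of 5 libraries (exact sign-flip permutation p = 0.75). It was largest in depleted replicate 1, at -4.82 points, and 0.405 points without that library. It was -1.28 points without depleted replicate 2, -1.09 points with strands merged, -1.2 points with calls pooled over positions and -2.39 points without positions that have a further copy (exact sign-flip permutation p = 0.125).

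Levels of the alleles went together along the locus. Over the 91 exon and upstream positions on both alleles Pearson's r of the allele means was 0.858, given as a description, since the alleles share libraries, depth and sequence. The means were within 10 points of each other at 63 of these positions. The median absolute allele difference of the 11 elements tested on both alleles was 4.28 points, beside 0.147 points for 3037 other elements, most of them near 0% on both alleles.

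Of these 11 elements, 2 differed between the alleles by the quasi-binomial model at an adjusted p under 0.05, against 1.38% of all 3048 elements, and 4 had an unadjusted p under 0.05, against 7.48%. limma gave 0, against 0.656% of all elements, with 1 unadjusted, against 8.92%. Most of all elements lie near 0% on both alleles, and the share among elements of like level was not taken. The exon of Pcdhb2 (37294812 to 37297624, 6 shared positions) had 38.8, 39.5 and 39.9% on the castaneus allele of controls and 43.6 and 41.3% of depleted libraries. On the domesticus allele it had 57.1, 50.8 and 66.8% in controls and 64.1 and 67.2% in depleted libraries. The domesticus allele was higher in 5 of 5 libraries, by 20.6 points ± 6.30 (SD, n = 5, adjusted p = 0.00933 by the quasi-binomial model).

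All 6 shared positions of Pcdhb2 had a higher domesticus mean. Only a pair of them, at 37296763 and 37296764, were higher in 5 of 5 libraries, by 28.7 and 41.0 points. Both were picked out after their values were seen, and as adjacent bases they may be the 2 strands of 1 CpG. Of the 6 positions, 5 had 5 to 13 further copies at 90% identity, so that the exon could not be tested without such positions, and the origin of these reads was not tested. The call was lost with limma (adjusted p = 0.314), with more than 20 calls in every library (0.0943), without depleted replicate 1 (0.102) and without depleted replicate 2 (0.05). Over its 10 alternatives the adjusted p ranged from 0.00143 to 0.314, with the same direction in all 10.

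The exon of Pcdhga12 (37765580 to 37768540, 12 shared positions, none with a further copy) had 54.8, 42.1 and 42.8% on the castaneus allele of controls and 48.6 and 44.1% of depleted libraries. On the domesticus allele it had 44.0, 36.5 and 37.1% in controls and 37.6 and 35.1% in depleted libraries. Here the castaneus allele was higher in 5 of 5 libraries, with a domesticus minus castaneus difference of -8.40 points ± 2.65 (SD, n = 5, adjusted p = 0.0325 by the quasi-binomial model). The adjusted p ranged from 0.0175 to 0.729 over 11 alternatives, all in the same direction, and the call was lost with limma and without any 1 library, namely control replicate 1 (0.110), 2 (0.0936) and 3 (0.0721) and depleted replicate 1 (0.156) and 2 (0.125).

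The next largest allele differences did not pass. Pcdhac1 was higher on the castaneus allele in 5 of 5 libraries, with a difference of -9.84 points ± 5.32 (SD, n = 5, domesticus minus castaneus, adjusted p = 0.303 by the quasi-binomial model), and the largest difference among its 5 positions lay at 37092002, where the means were 55.2% castaneus and 15.3% domesticus, a position named after its values were seen. The upstream region of Pcdhga11 (-6.86 points, adjusted p = 0.506), its exon (-6.57 points, 0.869) and the exon of Pcdhga10 (-4.28 points, 0.877) did not pass the quasi-binomial test. The Pcdhga11 exon was higher on the castaneus allele in 4 of 5 libraries, most in depleted replicate 1 (62.3 against 42.6%). For the Pcdhga10 exon it was 3 of 5, most in control replicate 3 (44.4 against 18.7%). Of the 11 elements, 0 showed a depletion effect that differed between alleles by a limma interaction test, with 0 unadjusted, against 0% and 4.89% of all elements.

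**Figure D5:**
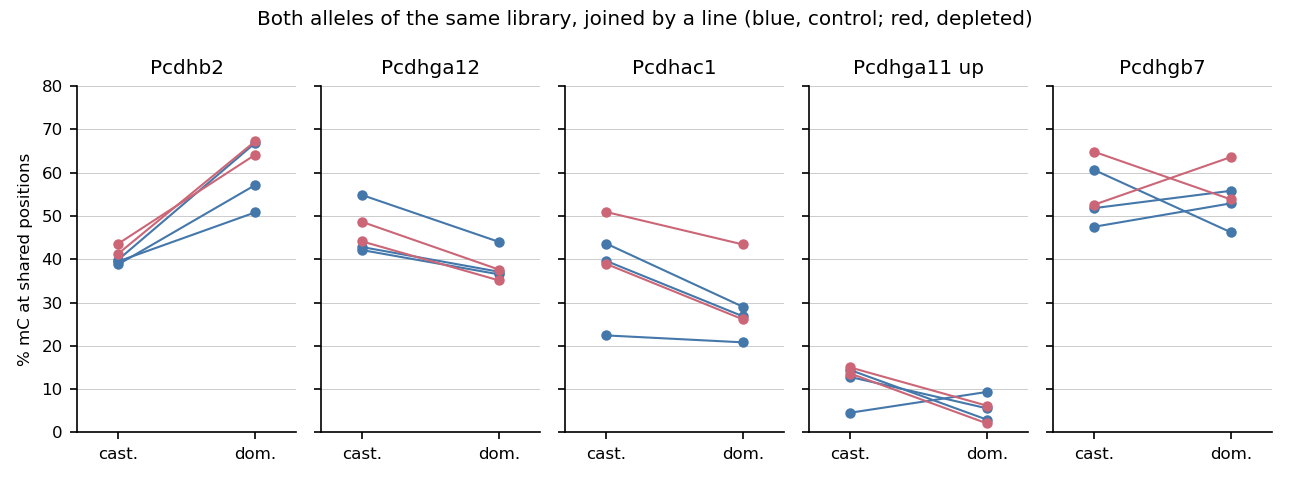
Percent mC at positions measured on both alleles for 5 elements, castaneus (cast.) and domesticus (dom.) values of the same library joined by a line (blue, Female control, n = 3, red, Setdb1 depleted, n = 2, "up", upstream region). All 5 lines go up from castaneus to domesticus for Pcdhb2 and down for Pcdhga12 and Pcdhac1, and those of Pcdhgb7 cross.

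The space between the protocadherin elements held 36 castaneus and 61 domesticus members of 2 kinds. The positions within Taf7, a gene of the general transcription factor TFIID that lies between the beta and gamma clusters, were unmethylated, with library means of 0 to 0.540% over 14 castaneus and 0.0299 to 0.119% over 27 domesticus positions. Outside Taf7 the 22 castaneus positions had 52.2, 52.5 and 52.2% in controls and 52.1 and 50.8% in depleted libraries. The 34 domesticus positions had 63.5, 61.9 and 62.1% in controls and 61.1 and 60.1% in depleted libraries.

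Over the whole space between, the depleted libraries lay below the controls, with differences of -0.427 points on the castaneus and -1.03 points on the domesticus allele (exact permutation p = 0.1 for each, the smallest possible). The castaneus direction was not stable. It was 0.616 points with both strands of a CpG merged, 0.0286 points without reads marked by the sequencer's filter, and 1.39 points without positions that have a further copy, which removed 15 of the 36. In the same direction as the first value, it was -3.03 points with calls pooled over positions, -1.45 points with more than 20 calls in every library, and leaving out depleted replicate 1 or 2 gave -0.742 or -0.113 points. The domesticus value was -1.78 points with more than 20 calls and -1.91 points with strands merged.

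Other genes of the pathway were sparsely covered. Of 23 regulators of the clusters and of DNA methylation, 1 had a tested element on the castaneus allele (Atf7ip, a partner of Setdb1) and 4 on the domesticus allele (Atf7ip, Setdb1, Tet2 and Uhrf1), named here after their values were seen. None passed (0 by the quasi-binomial model, 0 unadjusted). Of 19 non-clustered protocadherins and related cadherins, 10 were measured on each allele, with 13 castaneus and 12 domesticus elements. None of these passed (0 and 0), with 0 and 2 unadjusted, the latter among 12 elements against 2.36% of all domesticus elements. Their levels ran from 0 to 95.4% mC with a median of 2.68% on the castaneus allele, and from 0.132 to 93.8% with a median of 3.45% on the domesticus allele. Of 12 fibroblast marker genes 2 were measured, Vim and Fn1, with at most 0.074% mean mC, and of 8 markers of other lineages, 3 and 2, with at most 2.55%. Of 5 germ or pluripotent cell genes 1 was measured, Ddx4, at 72.6 and 65.7%. Its 3 upstream positions differed by -18.2 points, depleted minus control, on the castaneus allele, where depleted replicate 2 stood at 50% and depleted replicate 1 at 73.3% (p = 0.0747, adjusted p = 1 by the quasi-binomial model), and by 0.583 points on the domesticus allele. Methylation at these elements does not show which cell types were present, so the tissue label could not be checked from these data.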

How the data were processed

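Per the study's methods, the authors trimmed single-end eRRBS reads, aligned these to mm10, its strain differences masked, using Bismark, and assigned reads to a parental allele. The deposited values are methylation calls, that is counts of methylated and unmethylated CpG calls per read, extracted with Bismark 0.13.0 per the file headers, not normalised or filtered on coverage. The sources used here do not mention PCR duplicates, so copies of 1 molecule may count more than once. Calls were summed per position, allele and library, with the strands of a CpG kept as separate positions. Coordinates and genes are from GRCm38 with GENCODE M21. Region means average over positions, element values use summed calls.

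Group means were compared by exact permutation of 10 labellings and alleles or genes within libraries by sign flips of 32 patterns, both two-sided. Positions and elements of at least 3 positions were tested by a quasi-binomial model with dispersion moderated by limma 3.58.1 (R 4.3.3), with Benjamini-Hochberg adjustment over all autosomal features of the allele at 0.05. The limma alternative used log2 odds with an offset of 0.5, and the other alternatives are given with their effect. Copies were sought with blastn 2.17.0. Other steps used Python 3.11.15.

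The members and gene lists were chosen with earlier results of these data known. Elements are named if they passed a test, had 1 of the 4 largest non-overlapping differences, 4 highest or 4 lowest control means per allele or 6 largest allele differences, or are C-type. Positions are named if among the 2 smallest p-values per allele. Further positions of Pcdhb2 and Pcdhac1 were named after their values were seen.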

Additional observations from a re-analysis of the deposited data

How the results depend on the processing

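Of 213 alternatives to the region means, read shares and counts, 188 kept the direction or the count, 13 turned the direction and 12 moved a count by over 1.5 times. Leaving out each library in turn gave allele differences of -1.28 to 0.405 points, castaneus fully methylated read differences of -2.67 to 0.0677 and mixed read differences of -5.09 to 1.29 points, domesticus fully methylated read differences of -1.09 to 1.32 points, domesticus variable exon differences of -2.74 to 0.148 points, and 0 to 1 elements differing between alleles. The castaneus space between ranged from -0.742 to -0.113 points with 1 library left out, and turned to 0.616 points with strands merged, 0.0286 points without reads marked by the sequencer's filter and 1.39 points without positions with a further copy. With at least 6 calls per read, the domesticus differences were -0.208 points for fully methylated and 0.352 points for mixed reads. The castaneus mixed read difference went from -1.90 to -7.59 points in the same reads. Fisher's exact test on summed calls found 13 castaneus and 17 domesticus positions and 4 and 5 elements. The count of elements differing between alleles was 0 with limma, 1 with more than 20 calls and 1 without positions with a further copy.

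The labels number the libraries of both groups but give no pairing. Deviations of libraries with the same number correlated at -0.00231 to 0.032 over elements. The deviations of the 2 depleted libraries mirror each other and most elements lie near 0% mC. These correlations therefore cannot show whether libraries with the same number share an embryo or culture. With the replicate block, 0 protocadherin elements and 0 positions passed on either allele, and the domesticus fully methylated read difference was -0.623 points. The cause of these changes was not tested. Added after the data were seen, the alternatives for the Pcdha, castaneus Pcdhb and castaneus Pcdhgb means kept their directions. At 10 castaneus and 6 domesticus upstream positions and 2 depleted libraries, depth and coverage limit what can be said of upstream regions.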
